A study of Sus scrofa with 18 samples.

Results

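The genes described here encode the subunits of the mitochondrial respiratory chain and ATP synthase that are made from nuclear DNA. They were taken from the deposited table by symbol alone (NDUFA, NDUFB, NDUFC, NDUFS and NDUFV genes with a number, SDHA to SDHD, UQCR genes, CYC1, COX4 to COX8 genes and ATP5 genes). The rule found 69 of the 27339 genes in the table, and 69 of 69 had enough counts to be tested. They comprised 36 genes of complex I, 4 of complex II, 2 of complex III, 10 of complex IV (NDUFA4 and NDUFA4L2 included) and 15 of ATP synthase. ATP5S and ATP5SL, which carry the ATP5 name but are not structural subunits, made up the rest. The rule matched no row for CYC1 or the COX4 genes, and subunits that stand under other symbols were not analysed here.

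Messenger RNA was measured in 18 pig libraries, 3 for each of 6 groups. The tumour groups (DIK) came from 1 founder of a double knock-in line that carries elements of the Tet-on switch and of the phiC31 integrase, and were labelled nose, mouth and scrotum. The normal groups came from wild-type (WT) pigs under the same labels. Both genotypes received doxycycline (Dox) from 7 months of age and were sampled 8 months after induction, the WT pigs being matched for age. The labels give neither the transgenes switched on and their promoters nor how many WT animals were used. The p-values therefore reflect the variation among these libraries alone, and part of it may be technical.

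Library totals ran from 2024959 to 4146150 counts in DIK and from 418665 (WT nose replicate 1) to 5041470 in WT. Levels are given as CPM, counts relative to library size after TMM scaling (which aligns the libraries on genes that differ little), and 3 counts corresponded to 0.483 to 5.76 CPM. The labels mouth and scrotum are kept as given, although posterior HOX genes, which mark the hind body, summed to 42.2 to 70.8 CPM in WT mouth libraries and 3.36 to 6.52 CPM in WT scrotum libraries, and to 11.7 to 20.4 CPM and 0.625 to 4.19 CPM in DIK mouth and scrotum. The WT groups also differed in tissue makeup. Skeletal muscle markers summed to 120978 to 166720.4 CPM in WT nose, 142469 to 372744 CPM in WT scrotum and 3934 to 9950.3 CPM in WT mouth, where smooth muscle markers summed to 63273 to 117477 CPM (DES is in both lists). The DIK libraries held 15.6 to 960.0 CPM of skeletal muscle markers at the nose label, 7.28 to 13.8 CPM at mouth and 21.8 to 83.8 CPM at scrotum, and at least 89969.8 CPM of keratinocyte markers each. WT scrotum replicate 2 stood apart from replicates 1 and 3, with 58489.7 CPM of keratinocyte markers against 1371 and 139.9 CPM.

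Complexes I and II take electrons from NADH and from succinate, pass them through ubiquinone to complex III and through cytochrome c to complex IV, which reduces oxygen. Complexes I, III and IV pump protons as they do so, and ATP synthase uses the returning protons to make ATP. Each complex except complex II also holds subunits encoded in mitochondrial DNA, which are not covered here. Striated muscle is rich in mitochondria and uses its own isoforms of several complex IV subunits. In tissue libraries such as these, fewer cells of one type and less RNA per cell cannot be told apart.

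Subunit mRNA differed widely among the normal tissues and little among these tumours, which came from 1 founder. How many pigs gave the WT libraries is unknown, so their spread may include differences between animals. The part of animal origin in this contrast was not tested. The 69 genes together held 2.80% ± 0.899 (SD, n = 3) of all counts in WT scrotum, 1.82% ± 0.190 in WT nose and 0.627% ± 0.113 in WT mouth. In the tumours the share was 0.874% ± 0.0769 at nose, 0.952% ± 0.0839 at mouth and 0.719% ± 0.0174 at scrotum. Within each label the DIK and WT libraries did not overlap, whereas DIK scrotum overlapped WT mouth. The tumour means lay between the WT mouth mean and those of both muscle-rich WT groups, and the same order held for the summed complex I genes, at 7519.9 ± 3051 CPM in WT scrotum, 4089.9 ± 345 CPM in WT nose and 1349 ± 159 CPM in WT mouth, against 2277 ± 170.0 CPM, 2087 ± 139 CPM and 1945 ± 37.2 CPM in DIK nose, mouth and scrotum. Between the highest and the lowest label the group mean moved 5.58-fold in WT and 1.17-fold in DIK for complex I, and 6.66-fold and 1.17-fold for ATP synthase. Complex II was the exception to the order. Its 4 genes summed to 246 ± 36.1 CPM in WT mouth and to no more in any DIK group, at 169.7 ± 26.9 CPM in DIK mouth, 145 ± 4.26 CPM in DIK scrotum and 129.8 ± 5.14 CPM in DIK nose.

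**Figure D1:**
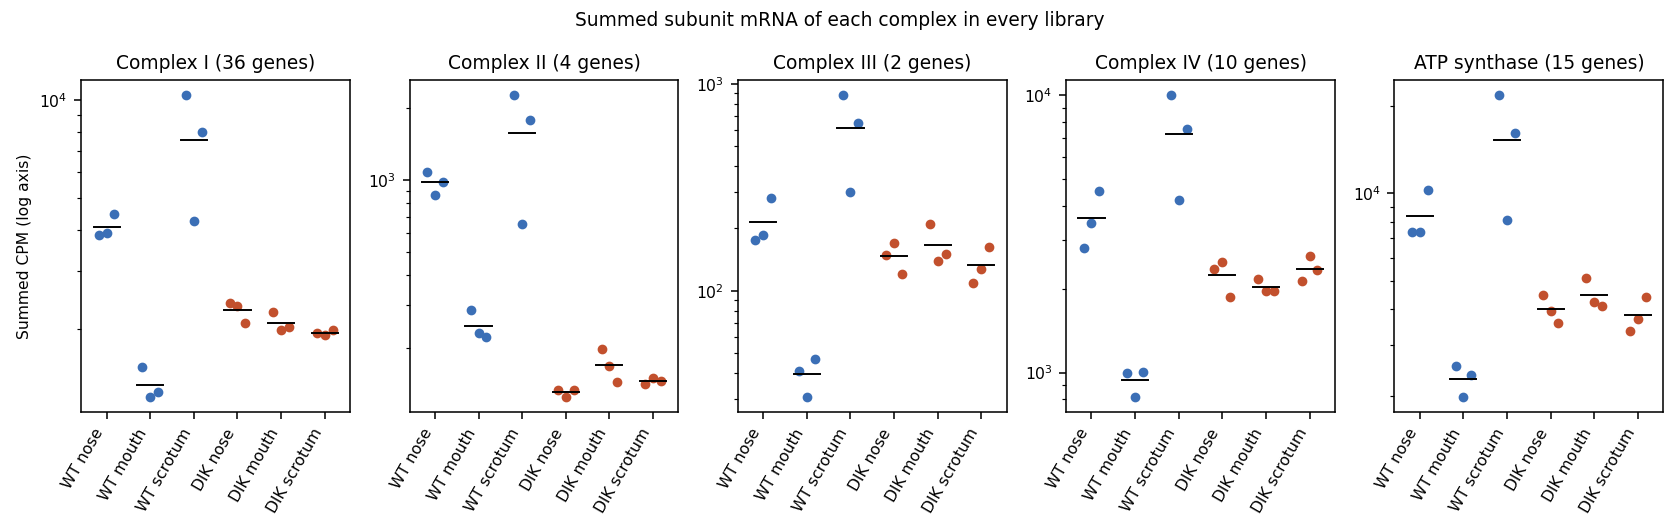
Summed CPM of the subunit genes of each complex (y, log axis) in the 18 libraries by group (x); points are libraries and bars are means of 3. The DIK groups lie close together, above WT mouth and below WT nose and WT scrotum in complex I and ATP synthase, while in complex II they lie below all WT groups.

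At the nose label, most subunit genes that were called were lower in the tumours than in normal tissue, and many were not called. edgeR called 34 of the 69 genes lower, where 20.1% of all 12895 genes tested were called lower, and 3 higher, where 21.9% of all genes were. The remaining 32 were not called. The median log2 difference over the 69 genes was -0.81, beside 0.03 over all genes. All 4 complex II genes fell, as did 17 of 36 in complex I, 7 of 15 in ATP synthase, 4 of 10 in complex IV and 1 of 2 in complex III. The genes that rose were COX6A1, COX7A2 and NDUFA4L2, all counted in complex IV.

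At the mouth label the direction was the opposite. There 29 of the 69 genes were higher in the tumours (all genes 22.7%) and 4 were lower (all genes 24.3%), while 36 were not called. The median was 0.66, beside -0.04 over all genes, and 0.38 beside -0.29 with library size as the only scaling. The higher genes were 14 of complex I, both of complex III, 6 of complex IV and 7 of ATP synthase. The 4 lower genes were SDHA and SDHB of complex II and the muscle isoforms COX7A1 and COX8H.

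At the scrotum label nearly every subunit gene was lower in the tumours, 62 of 69 (all genes 24%), and the same 3 complex IV genes as at nose were higher (all genes 19.4%). The median was -1.92, beside -0.09 over all genes. It was -2.17 without WT scrotum replicate 2, where 64 genes were lower, and -1.67 without WT scrotum replicate 1, where 59 were. NDUFS5, NDUFS6, ATP5J2 and ATP5SL, named here after their values were seen, were not called. Across the 3 labels, 23 genes were lower at scrotum and higher at mouth, a pattern that 1.16% of all genes showed, and 8 of them were also lower at nose (0.302% of all genes). Another 22 were lower at nose and scrotum and not called at mouth (4.47% of all genes). Only COX7A1, COX8H, SDHA and SDHB were lower at all 3 labels (8.76% of all genes) and only COX6A1, COX7A2 and NDUFA4L2 higher at all 3 (9% of all genes), which as shares of 69 are no larger than those of all genes.

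Most skeletal muscle markers were lower in the tumours at every label, also at mouth, where most called subunit genes were higher. Of 24 tested, 24 were lower in the tumours at nose (all genes 20.1%), 24 at scrotum (24%) and 21 at mouth (24.3%). The medians were -10.64, -12.62 and -6.14. Keratinocyte markers were higher in 10, 11 and 6 of 11 at nose, mouth and scrotum (all genes 21.9%, 22.7% and 19.4%). Smooth muscle markers were lower in 7, 9 and 7 of 9 (all genes 20.1%, 24.3% and 24%). Between 13 and 17 of the 24 muscle markers in the table had 0 counts in the DIK mouth libraries. At DIK scrotum 4 to 7 had 0 counts, and at DIK nose 0 to 10. The sizes of the muscle marker differences are therefore uncertain. The part of tissue makeup in the subunit differences was not tested.

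**Figure D2:**
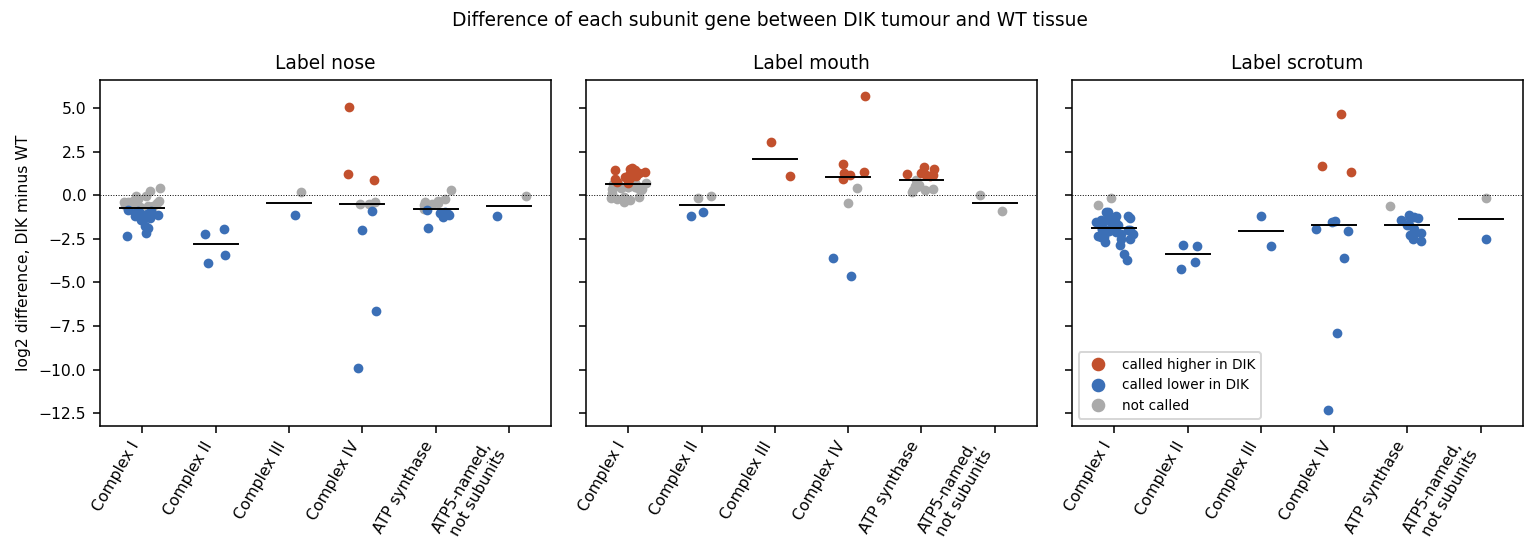
Log2 difference between DIK and WT (y) of each of the 69 genes, grouped by complex (x), at the labels nose, mouth and scrotum; points are genes coloured by edgeR call and bars are medians. Most points lie below 0 at nose and scrotum and above 0 at mouth, complex II lies below 0 in all 3 panels, and complex IV has the widest spread.

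In complex I, the 7 core genes of the NADH-oxidising arm fell at nose in 5 cases (all genes 20.1%) and at scrotum in 7 (24%). They rose at mouth in 3 (22.7%). Their medians were -1.42, -2.53 and 0.47. NDUFS7 carries the iron-sulfur cluster next to the ubiquinone site. It measured 342, 306 and 339 CPM in WT nose and 964, 342 and 710.0 CPM in WT scrotum, against 70.4, 60.6 and 62.5 CPM and 45.3, 58.3 and 49.4 CPM in the matching tumours, so that the groups did not overlap. The differences were -2.35 ± 0.32 (edgeR adjusted p = 1.87e-05) and -3.72 ± 0.34 (1.69e-07). At mouth NDUFS7 was not called, although every DIK library lay above every WT library, with 63.1, 46.9 and 44.1 CPM in WT and 69.9, 74.1 and 68.0 CPM in DIK. NDUFS8, which holds a pair of clusters in the same chain, also fell at nose by 1.87 on the log2 scale and was at -2.69 ± 0.31 at scrotum, while its mouth value of -0.27 ± 0.29 was not called. Lack of overlap, here and below, was common over all genes. Every DIK library lay below every WT library in 25.1% of them at nose, 29.7% at mouth and 27.2% at scrotum. Every DIK library lay above every WT library in 29.2%, 29.0% and 24.0%. Of the 69 genes, 65.2%, 8.7% and 88.4% lay below in this way, and 5.8%, 60.9% and 4.35% above.

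NDUFS1, the largest core subunit, differed by -2.19 ± 0.50 at nose and -3.38 ± 0.52 at scrotum. WT scrotum replicate 2 had 49.9 CPM of it, against 280.3 and 211 CPM in replicates 1 and 3, and still lay above every DIK scrotum library (21.5, 16.1 and 13.8 CPM). NDUFV1, the NADH-binding subunit, was lower at nose (-1.13 ± 0.30) and scrotum (-2.53 ± 0.31) and not called at mouth (0.44 ± 0.29). NDUFV2 and NDUFS3, also core subunits, were higher at mouth (edgeR adjusted p = 0.00744 and 0.0162), lower at scrotum (-1.43 ± 0.30 and -2.09 ± 0.33) and not called at nose. NDUFS3 lost its mouth call without DIK mouth replicate 1 (0.80) or WT mouth replicate 1 or 2 (0.87 and 0.98), and gained a nose call without WT scrotum replicate 1 or 2 (-0.69 in each case).

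The 29 accessory genes of complex I surround and stabilise the core. They were lower in 12 cases at nose (all genes 20.1%) and 27 at scrotum (24%), and higher in 11 at mouth (22.7%). Their medians (-0.67, -1.75 and 0.67) were closer to 0 than those of the core at nose and scrotum. NDUFB5, of the membrane arm, showed the whole pattern. Its level was 84.4, 60.2 and 82.9 CPM in WT nose, 11.7, 10.8 and 12.3 CPM in WT mouth and 253, 79.7 and 219 CPM in WT scrotum. In the tumours it was 38.1, 32.8 and 22.4 CPM at nose, 39.2, 34.5 and 26.1 CPM at mouth and 36.9, 37.5 and 43.1 CPM at scrotum. The tumour values of the 3 labels overlapped one another, the WT values did not overlap between mouth and the other labels, and the differences were -1.28 ± 0.34, 1.52 ± 0.35 and -2.23 ± 0.35 at nose, mouth and scrotum. NDUFA10, another accessory subunit, had the largest rise of complex I at mouth, 1.56 ± 0.30 (edgeR adjusted p = 0.000412), with 81.0, 84.8 and 77.8 CPM in DIK and 40.4, 20.2 and 21.8 CPM in WT. It was not called at nose (-0.35 ± 0.30), where WT had 96.0, 93.8 and 93.4 CPM and DIK 73.1, 73.5 and 74.8 CPM.

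At nose 17 of the 29 accessory genes were not called, among them NDUFB8, NDUFC1, NDUFB10 and NDUFB4. NDUFB8 was at 0.42 ± 0.29 there, with 192, 207 and 157 CPM in DIK and 140.1, 127 and 149 CPM in WT. Every DIK library was above every WT library, as in 29.2% of all genes at this label, and the gene was not called. At mouth it was higher by 1.43 ± 0.30 and at scrotum it differed by -1.20 ± 0.29. NDUFC1, a small subunit, was at -0.07 ± 0.30 at nose, 1.27 ± 0.30 at mouth and -1.71 ± 0.31 at scrotum. NDUFB10 and NDUFB4 were called at scrotum alone, at -1.28 ± 0.23 and -1.97 ± 0.28.

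Complex II, succinate dehydrogenase, belongs to the citric acid cycle as well as to the respiratory chain and is encoded wholly in the nucleus. SDHA, its flavoprotein that oxidises succinate, measured 482, 396 and 392 CPM in WT nose and 27.9, 28.0 and 31.4 CPM in DIK nose. In WT scrotum it measured 893, 221 and 753 CPM and in DIK scrotum 43.6, 54.3 and 32.5 CPM. WT mouth was lower, at 101, 93.6 and 78.2 CPM, and yet above DIK mouth at 43.0, 52.7 and 45.6 CPM. No DIK library overlapped the WT libraries of its label. The differences were -3.86 ± 0.41 at nose (edgeR adjusted p = 1.21e-06), -3.83 ± 0.41 at scrotum (8.93e-07) and -0.95 ± 0.37 at mouth (0.0421). The mouth call was weak, since leaving out any 1 library other than DIK nose replicate 1, DIK scrotum replicate 3 or a WT scrotum library ended it, with values from -1.04 to -0.87 and adjusted p up to 0.123, and so did the replicate number as a block (-0.93, adjusted p = 0.0518).

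SDHB carries the iron-sulfur clusters that take electrons from SDHA to ubiquinone. Its tumour level was 18.0, 21.3 and 16.4 CPM at nose, 22.1, 19.4 and 17.3 CPM at mouth and 18.2, 14.7 and 19.4 CPM at scrotum. In WT it was 205, 187 and 197 CPM at nose, 61.3, 35.6 and 37.0 CPM at mouth and 494, 141 and 357 CPM at scrotum. All 9 DIK values lay below all 9 WT values. The differences of -3.40 ± 0.38, -1.19 ± 0.35 and -4.25 ± 0.39 were all called (edgeR adjusted p = 1.99e-06, 0.0101 and 2.01e-07), and leaving out any 1 library ended none of these calls, the mouth value then running from -1.33 to -0.93. SDHC and SDHD anchor the complex in the membrane. They fell at nose (-1.95 ± 0.32 and -2.23 ± 0.37) and scrotum (-2.84 ± 0.33 and -2.90 ± 0.38), and at mouth were at -0.07 ± 0.31 and -0.13 ± 0.36, not called, where DIK and WT libraries overlapped.

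**Figure D3:**
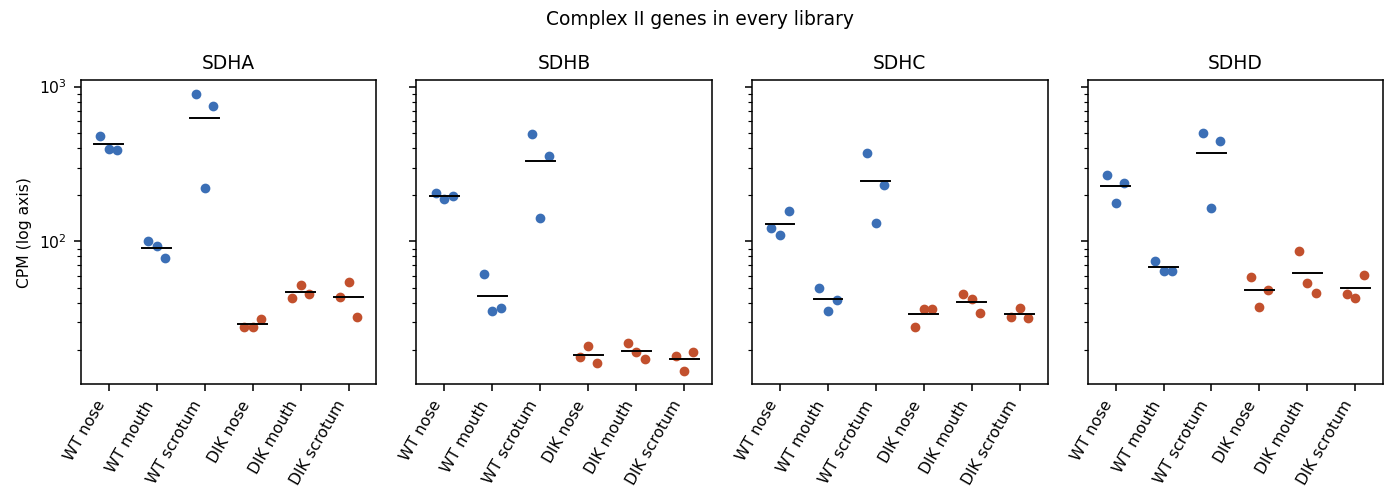
CPM (y, log axis) of the complex II genes SDHA, SDHB, SDHC and SDHD in the 18 libraries by group (x); points are libraries and bars are means of 3. SDHA and SDHB are lower in DIK than in WT at every label, whereas SDHC and SDHD overlap between DIK mouth and WT mouth.

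Complex III was represented by 2 accessory subunits. UQCR10, a small accessory protein, had the largest rise among the 69 genes at mouth after NDUFA4L2, 3.06 ± 0.37 (edgeR adjusted p = 4.83e-06). It measured 135, 94.3 and 100.2 CPM in DIK mouth and 15.8, 10.1 and 13.4 CPM in WT mouth. At nose DIK (76.0, 92.9 and 69.9 CPM) and WT (46.1, 63.5 and 95.9 CPM) overlapped and the gene was not called, and at scrotum, where they also overlapped, it was at -1.20 ± 0.35. The scrotum call ended without DIK scrotum replicate 1 (-1.04) or WT scrotum replicate 1 (-0.87). UQCRB, which lies near a ubiquinone site, was lower at nose (-1.13 ± 0.36) and scrotum (-2.91 ± 0.38) and higher at mouth (1.10 ± 0.36). Its nose call ended without replicate 3 of DIK nose (-0.95) or of WT nose (-0.91), and its mouth call without DIK mouth replicate 1 (0.86) or WT mouth replicate 1 or 2 (1.02 and 0.94).

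The genes counted in complex IV, cytochrome c oxidase, held both the steepest falls and the steepest rises. These rises were those of NDUFA4L2, a paralog of NDUFA4 that was grouped here with the complex. At mouth the next largest rise was that of UQCR10, of complex III. COX7A1 is the isoform of subunit 7A in heart and skeletal muscle, and COX7A2 the form found in most tissues. COX7A1 measured 324, 321 and 394 CPM in WT nose, 14.0, 19.0 and 19.7 CPM in WT mouth and 1260.5, 407 and 1078 CPM in WT scrotum. In the tumours it measured 3.64, 2.69 and 3.82 CPM at nose, 0.633, 1.70 and 1.87 CPM at mouth and 3.07, 5.01 and 3.13 CPM at scrotum, below every WT library. The differences were -6.66 ± 0.47 (edgeR adjusted p = 2.84e-08), -3.59 ± 0.45 (6.67e-06) and -7.91 ± 0.50 (6.02e-09). COX7A2 went the other way, with 49.9, 84.0 and 86.5 CPM in WT nose, 72.4, 63.8 and 65.8 CPM in WT mouth and 91.5, 71.1 and 67.2 CPM in WT scrotum. Its tumour levels were 166, 249 and 113 CPM at nose, 166, 127 and 158 CPM at mouth and 191, 183 and 214 CPM at scrotum, all above every WT library. It was higher by 1.24 ± 0.30, 1.16 ± 0.29 and 1.36 ± 0.29.

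The mix of the 2 forms therefore shifted. COX7A1 gave 82.6% ± 3.75 (SD, n = 3) of the counts of the pair in WT nose, 90.8% ± 4.96 in WT scrotum and 20.7% ± 3.91 in WT mouth. In DIK it gave 2.16% ± 1.10, 0.957% ± 0.505 and 1.89% ± 0.666 at nose, mouth and scrotum. These shares of counts are not corrected for transcript length, so they compare libraries and not the absolute amounts of both forms.

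COX8H, the heart and muscle form of subunit 8, was close to 0 outside the muscle-rich WT groups. It had 135, 650 and 1629 counts in WT nose and 2959, 1938 and 3444 counts in WT scrotum, which is 259, 237 and 348 CPM and 1242, 395 and 864 CPM. It had 4, 7 and 2 counts in WT mouth, and in DIK 3 counts over the nose libraries, 0 over the mouth libraries and 1 over the scrotum libraries. The ratio of WT to DIK was 1165 at nose (95% counting interval 398 to 5654) and 5899 at scrotum (1058 to 233009.8). At mouth WT was at least 3.03-fold higher, taking 3 counts over the group as the floor, on 13 WT counts in all. edgeR called it lower at each label (adjusted p = 8.77e-08, 0.00645 and 1.95e-08).

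COX6A1 is the general form of subunit 6A, and its muscle partner was not among the rows that the rule matched. It measured 55.4, 164 and 77.5 CPM in WT scrotum, 129, 195 and 216 CPM in WT nose and 149.7, 142 and 199 CPM in WT mouth. The tumours had 355, 363 and 280.1 CPM at nose, 358, 286 and 299 CPM at mouth and 298, 327 and 341 CPM at scrotum, above all WT libraries. The rise was 1.70 ± 0.35 at scrotum (edgeR adjusted p = 0.000674), 0.94 ± 0.34 at mouth (0.0293) and 0.88 ± 0.34 at nose (0.0439). The nose call ended without any 1 library other than DIK nose replicate 3, WT mouth replicate 3 or a WT scrotum library, with values from 0.70 to 1.04. It also ended under median-of-ratios, upper-quartile and library-size scaling and without a filter (0.83, 0.81, 0.80 and 0.87). The mouth call ended without DIK mouth replicate 1 or 3 (0.85 and 0.99), without WT mouth replicate 1 or 2 (0.84 and 0.85), under library-size scaling alone (0.70), and also without a filter (0.91).

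**Figure D4:**
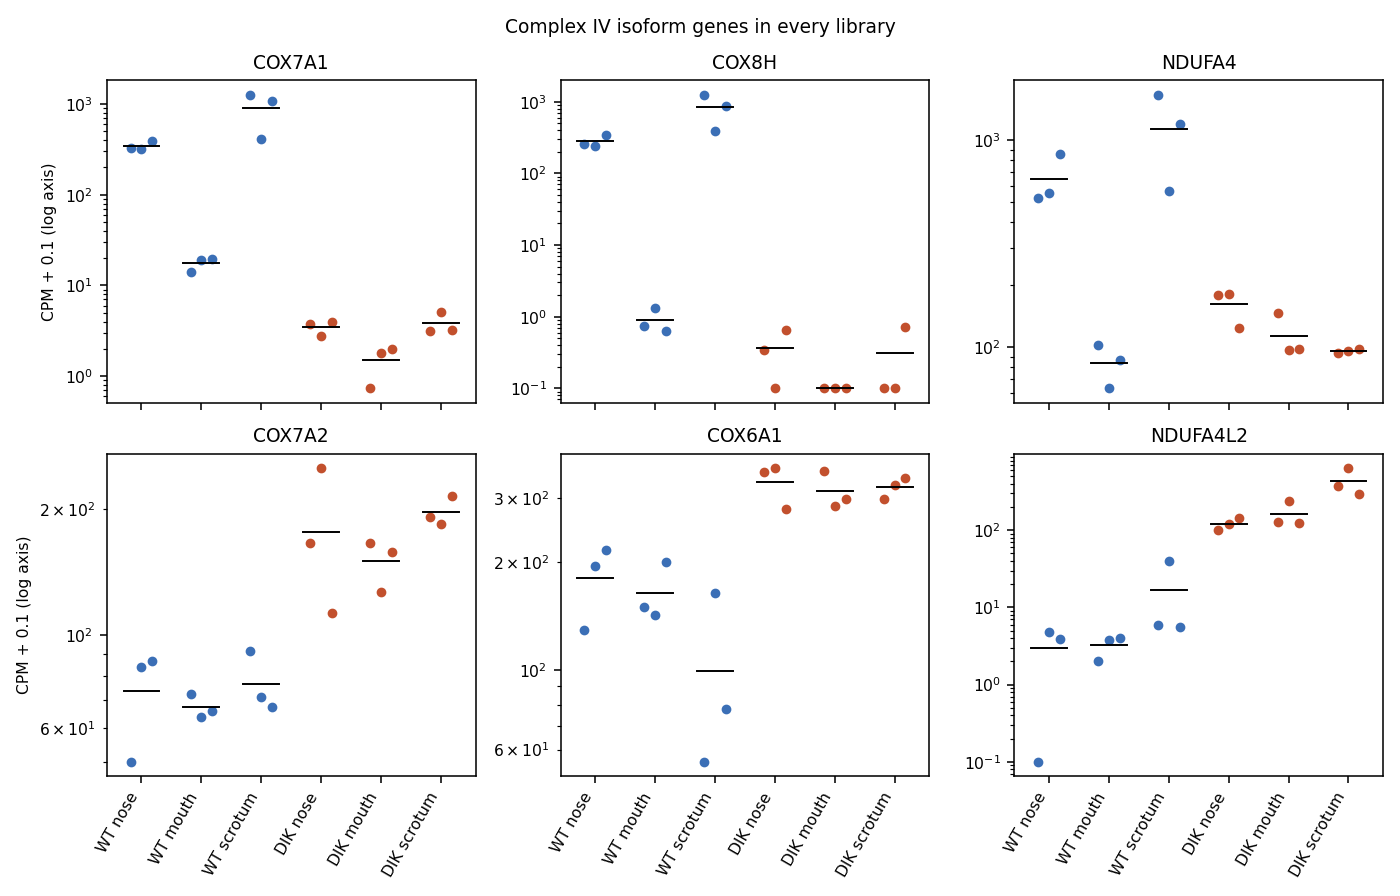
CPM + 0.1 (y, log axis) of the complex IV genes COX7A1, COX8H, NDUFA4, COX7A2, COX6A1 and NDUFA4L2 in the 18 libraries by group (x); points are libraries and bars are means of 3. The muscle forms COX7A1 and COX8H are high in WT nose and WT scrotum, and COX7A2, COX6A1 and NDUFA4L2 are higher in every DIK library than in any WT library.

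NDUFA4 and NDUFA4L2 are paralogs named after complex I. NDUFA4 was later assigned to complex IV, and NDUFA4L2 is known as a gene switched on in low oxygen. NDUFA4L2 had 0, 13 and 18 counts in WT nose and 1.93, 3.66 and 3.93 CPM in WT mouth. The 0 was in WT nose replicate 1, of 418665 counts in all, where 3 counts corresponded to 5.76 CPM. Raw counts at nose are therefore not comparable across libraries of unlike depth. In WT scrotum NDUFA4L2 had 5.87, 39.3 and 5.52 CPM, the high value being the keratinocyte-rich replicate 2. The tumours had 412, 444 and 531 counts at nose, 129, 242 and 123 CPM at mouth and 371, 634 and 291 CPM at scrotum. The differences were 5.05 ± 0.76, 5.70 ± 0.75 and 4.65 ± 0.70 (edgeR adjusted p = 8.66e-05, 1.95e-05 and 6.22e-05), the scrotum value being 6.24 without WT scrotum replicate 2. NDUFA4 was lower at nose (-2.01 ± 0.37) and scrotum (-3.57 ± 0.40) and not called at mouth (0.43 ± 0.36). Of the counts of both genes, NDUFA4 gave 99.6% ± 0.426, 96.1% ± 1.86 and 97.6% ± 3.52 in WT nose, mouth and scrotum, and 56.7% ± 9.56, 41.9% ± 12.5 and 19.4% ± 6.02 in DIK.

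Of the 4 other complex IV genes, 3 were higher at mouth (all genes 22.7%) and all 4 lower at scrotum (24%). COX6B, which faces cytochrome c, was higher at mouth (1.79 ± 0.34) and lower at scrotum (-1.50 ± 0.33), and was not called at nose (-0.49 ± 0.33). It measured 76.9, 53.0 and 64.5 CPM in WT mouth and 274, 204 and 196 CPM in DIK mouth, without overlap. COX5B and COX7C, also structural subunits, had the same 3 calls as COX6B. COX6C was lower at nose and scrotum and not called at mouth. COX5B, COX7C and COX6C were named after their values were seen.

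ATP synthase genes were called in the same directions as complex I at each label. The F1 head is where ATP is made. It had 4 of 5 genes lower at nose (all genes 20.1%), 5 lower at scrotum (24%) and 3 higher at mouth (22.7%). ATP5B, the catalytic beta subunit, measured 2464, 2433 and 3393 CPM in WT nose, 643, 417 and 439 CPM in WT mouth and 6497, 2149 and 4812 CPM in WT scrotum. The tumours had 863, 689 and 677 CPM at nose, 1240.3, 1037 and 981 CPM at mouth and 736, 772 and 891 CPM at scrotum, apart from the WT libraries of the same label in each case. It differed by -1.90 ± 0.38, 1.12 ± 0.38 and -2.49 ± 0.39, and its mouth call ended without DIK mouth replicate 1 (1.03), without WT mouth replicate 2 or 3 (adjusted p up to 0.0868, with 1.04 in the latter case) and under library-size scaling alone (0.85). The alpha subunit ATP5A1, its partner in the head, differed by -1.27 ± 0.37, 1.53 ± 0.37 and -2.28 ± 0.38. ATP5C1, the gamma subunit that turns inside the head, differed by -1.12 ± 0.30, 1.17 ± 0.30 and -2.15 ± 0.31.

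Of the 4 stalk genes 2 fell at nose (all genes 20.1%), 4 fell at scrotum (24%) and 1 rose at mouth (22.7%). The mouth count was close to the share of all genes. ATP5O, which joins the stalk to the head, had the largest fall of ATP synthase at scrotum, -2.60 ± 0.34. At nose it was at -1.05 ± 0.32, a call that ended without replicate 3 of DIK nose (-0.90) or of WT nose (-0.86), and at mouth it was not called (0.48 ± 0.32). ATP5G1, ATP5G2 and ATP5G3 encode the same c subunit of the proton-driven ring, with different import signals. All 3 fell at scrotum (-2.21 ± 0.40, -1.44 ± 0.38 and -1.23 ± 0.32). At mouth ATP5G3 rose (1.60 ± 0.33), while ATP5G1 (0.88 ± 0.39) and ATP5G2 (0.32 ± 0.37) were not called. At mouth ATP5G1 was called without WT scrotum replicate 1 or 2 (0.89 in each case). At nose ATP5G1 was called at -1.02 ± 0.39, but not without any 1 of the DIK nose or DIK mouth libraries, DIK scrotum replicate 1 or 2, or WT nose replicate 2 or 3, with values from -1.18 to -0.65. The 3 further membrane genes (ATP5I, ATP5J2 and ATP5L) had 0 falls at nose (all genes 20.1%) and 2 at scrotum (24%). They had 2 rises at mouth (22.7%). ATP5S, no structural subunit, fell at scrotum (-2.53 ± 0.42) and at nose (-1.19 ± 0.41), though not without DIK nose replicate 1 or 2 (-1.23 and -0.92) or WT nose replicate 3 (-1.02). At mouth ATP5S was not called (-0.91 ± 0.38), but it was without DIK scrotum replicate 2 or 3, WT mouth replicate 1 or WT scrotum replicate 2 (-0.89, -0.89, -1.12 and -0.89). ATP5SL was not called at any label.

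Comparing labels within each genotype showed the same contrast directly, with the same limit on animal origin. In WT, 67 of the 69 genes were higher at scrotum than at mouth and 0 lower (all genes 13.7% higher and 9.29% lower), with a median of 2.44. Between mouth and nose in WT, 59 were lower at mouth and 0 higher (all genes 9.92% higher and 9.92% lower), with a median of -1.61. Between scrotum and nose in WT, 11 were higher at scrotum and 0 lower (all genes 2.6% higher and 3.45% lower), with a median of 0.92. That last count rested on single libraries, at 54 higher and 1 lower without WT scrotum replicate 2, 3 without WT scrotum replicate 1, and 1, 0 and 3 without WT nose replicates 1, 2 and 3. It was also 5 without DIK nose replicate 1, 6 without DIK mouth replicate 3 and 7 without DIK scrotum replicate 1 or 2. COX8H spanned the widest range in WT, 9.94 ± 0.69 between scrotum and mouth, and COX7A1 was next at 5.70 ± 0.44.

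In the tumours edgeR called 0 of the 69 genes between any pair of labels, where 1.54% of all genes were called for mouth against nose, 5.84% for scrotum against nose and 2.88% for scrotum against mouth. At an unadjusted p under 0.05 there were 2, 5 and 5, and DESeq2 called 0, 2 and 0. The DESeq2 calls were NDUFA4L2 and NDUFC2, whose edgeR differences between scrotum and nose were 1.83 ± 0.61 and -1.01 ± 0.31. NDUFC2 is outside the rule for named genes and was chosen after its values were seen. The medians were -0.08, -0.09 and -0.07, and the edgeR 95% interval lay within a 2-fold difference for 49, 45 and 46 of the genes. For the rest a difference of that size was not excluded by the interval. Without WT scrotum replicate 2, edgeR called 2 genes between DIK scrotum and nose and 2 between DIK scrotum and mouth, and it called 1 between DIK scrotum and nose without DIK nose replicate 2, WT mouth replicate 1 or WT scrotum replicate 3. These comparisons used a spread estimated from all 18 libraries, so their calls depend on the WT libraries too. They also share libraries with the comparisons of DIK against WT.

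**Figure D5:**
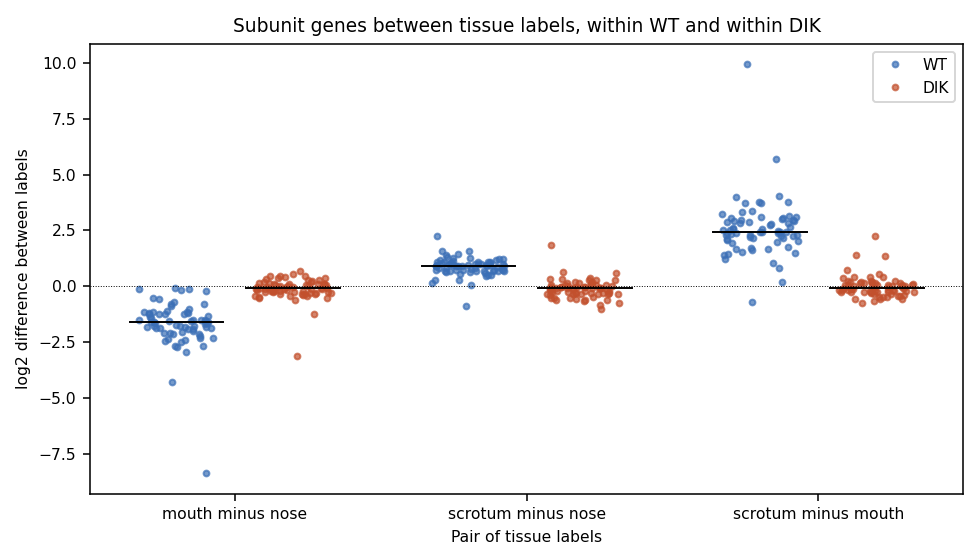
Log2 difference between tissue labels (y) of the 69 genes for each pair of labels (x), within WT and within DIK; points are genes and bars are medians. The WT points are spread away from 0, downward for mouth minus nose and upward for scrotum minus mouth, and the DIK points gather around 0.

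The tumour difference itself differed between labels by a test of the interaction. For mouth against nose it was more positive at mouth in 38 of 69 genes and more negative in 0 (all genes 3.99% higher and 4.61% lower). That count was 21 without DIK nose replicate 3, 22 without DIK mouth replicate 1, WT nose replicate 2 or 3, or WT mouth replicate 3, and 20 without WT mouth replicate 2. For scrotum against mouth it was more negative at scrotum in 62 genes and more positive in 0 (all genes 5.01% higher and 8.1% lower). For scrotum against nose it was more negative at scrotum in 11 genes and more positive in 0 (all genes 3.19% higher and 4.46% lower), a split that was 42 more negative and 1 more positive without WT scrotum replicate 2, and between 0 and 8 more negative without any other single library. NDUFS7, UQCR10 and NDUFB5 were among the 5 genes with the smallest p in both interactions with mouth. NDUFS7 differed by 2.81 ± 0.44 between mouth and nose and by -4.18 ± 0.45 between scrotum and mouth.

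Other mitochondrial genes were counted in lists, each count to be read against the share of all genes, which was 20.1% lower and 21.9% higher at nose, 24.3% and 22.7% at mouth, and 24% and 19.4% at scrotum. Of 17 genes of pyruvate oxidation and the citric acid cycle, 14 (82.4%) were lower and 0 higher at nose, 1 (5.88%) lower and 4 (23.5%) higher at mouth, and 16 (94.1%) lower and 0 higher at scrotum. IDH2, an enzyme of the cycle, differed by -3.28 ± 0.39 at nose, and MDH2, its malate dehydrogenase, by 1.34 ± 0.38 at mouth. Of 16 genes of fatty acid oxidation, 13 (81.2%) were lower and 0 higher at nose, 3 (18.8%) lower and 2 (12.5%) higher at mouth, and 13 (81.2%) lower and 0 higher at scrotum. CPT1B, the muscle form of the enzyme that admits fatty acids to mitochondria, stood at 37.0 ± 9.87 CPM in WT nose and 1.40 ± 0.447 CPM in DIK nose. It was lower at all 3 labels, with differences of -4.65 ± 0.60, -4.53 ± 0.75 and -8.68 ± 0.86 at nose, mouth and scrotum. The DIK nose mean was close to the level of 3 counts there, 0.728 to 0.819 CPM. The size of the nose difference is therefore uncertain.

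Of 25 tested assembly factors, which build the complexes, 10 (40%) were lower and 2 (8%) higher at nose, 2 (8%) lower and 3 (12%) higher at mouth, and 12 (48%) lower and 0 higher at scrotum. ECSIT, a complex I factor, differed by -2.38 ± 0.36 at nose and -3.06 ± 0.36 at scrotum, and ATPAF2, a factor of the F1 head, by 1.85 ± 0.41 at mouth. Of 74 tested mitochondrial ribosome genes, 13 (17.6%) were lower and 6 (8.11%) higher at nose, 3 (4.05%) lower and 15 (20.3%) higher at mouth, and 19 (25.7%) lower and 3 (4.05%) higher at scrotum, with shares close to or below those of all genes. Their medians were -0.14, 0.25 and -0.49. MRPL33, a protein of the large subunit, was at -3.18 ± 0.42 at scrotum, and MRPS12 of the small subunit at 1.46 ± 0.25 at mouth.

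Of 10 tested carriers and partner proteins, 6 (60%) were lower and 0 higher at nose, 2 (20%) lower and 6 (60%) higher at mouth, and 7 (70%) lower and 1 (10%) higher at scrotum. SLC25A4, the ATP/ADP carrier of heart and muscle, averaged 1886 ± 362 CPM in WT nose and 20.2 ± 5.89 CPM in DIK nose, and differed by -6.54 ± 0.45, -1.99 ± 0.36 and -7.31 ± 0.46 at nose, mouth and scrotum. CYCS, cytochrome c itself, was the highest-ranked rise of this list at mouth, 261 ± 33.1 CPM against 72.5 ± 25.1 CPM, a difference of 1.85 ± 0.34. Of 19 tested regulators of mitochondrial biogenesis, 5 (26.3%) were lower and 3 (15.8%) higher at nose, 2 (10.5%) lower and 2 (10.5%) higher at mouth, and 4 (21.1%) lower and 1 (5.26%) higher at scrotum. PPARGC1A, the coactivator that drives mitochondrial gene expression in muscle, averaged 26.0 ± 3.76 CPM in WT nose, 5.57 ± 1.98 CPM in WT mouth and 18.4 ± 11.7 CPM in WT scrotum, and 0.607 ± 0.556 CPM, 0.105 ± 0.183 CPM and 0.186 ± 0.323 CPM in the matching tumours. It differed by -5.34 ± 0.67, -5.49 ± 0.94 and -6.01 ± 0.82 at nose, mouth and scrotum. The tumour means lay below the level of 3 counts, 0.728 to 1.88 CPM in DIK libraries, so the sizes of these differences are uncertain. The part of PPARGC1A in the subunit differences was not tested. PPARD, a nuclear receptor of lipid use, was higher at all 3 labels (2.50 ± 0.39, 2.66 ± 0.36 and 2.47 ± 0.35).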

How the data were processed

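Messenger RNA of 18 pig tissue libraries was counted per gene. Per the labels' protocols, RNAlater kept the tissue, TRIzol served for extraction and the VAHTS mRNA-seq V3 kit for the libraries. Per the submitters' processing notes, fastp, HISAT2 2.1.0 and HTSeq 0.11.2 were used. Not given in the sources used here: build, annotation, strand setting and the treatment of multi-mapping reads. Subunit genes with near-identical copies elsewhere in the genome (NDUFA4 shares its symbol with a pseudogene in RefSeq) and genes with antisense partners are therefore uncertain. The authors' deposited values are raw read counts with no normalization.

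Groups came from the sample titles and columns were matched by name. edgeR 4.0.16 in R 4.3.3 tested the counts (robust quasi-likelihood fit), with TMM scaling, the default filter (minimum count 10, minimum total 15; 12895 of 27339 genes, at least 99.1% of counts), 6 group means and 1 spread shared by all libraries. P-values were adjusted by Benjamini-Hochberg over all genes of a contrast and called under 0.05. SE is the absolute difference divided by the square root of F. The steps were tested on simulated data. The counting intervals and floors of 3 counts cover counting error only.

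The members and lists were chosen with earlier results of these data known. Named genes were the complex II, complex I core, isoform and c ring genes, the 2 largest called differences per complex, label and direction, the 5 strongest interactions per pair of labels, members with 0 counts in a group, and the 3 genes of each further list with the smallest p per label. Some genes that this rule names are not reported here. The alternatives tried were scaling by median-of-ratios, upper quartile or library size, no filter, a filter of 10 CPM or more in 3 libraries, DESeq2 1.42.0, the replicate number as a block and each library left out. A further one, without both the shallowest library (WT nose replicate 1) and that which stood apart (WT scrotum replicate 2), was chosen after seeing the data. Same-numbered libraries had correlated deviations over 0.1 in 7 of 45 pairs, and differently numbered libraries in 8 of 90. These counts cannot tell whether the numbers pair the samples, and the main fit treated the libraries as unpaired. No sequence is printed, since none was at hand.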

Additional observations from a re-analysis of the deposited data

Results flagged for a closer look

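The difference between DIK and WT was itself different between labels, by edgeR's test of the interaction, for 38 of the 69 genes between mouth and nose, 11 between scrotum and nose and 62 between scrotum and mouth. Over all genes these tests called 3.99% more positive and 4.61% more negative between mouth and nose. The shares were 3.19% and 4.46% between scrotum and nose, and 5.01% and 8.1% between scrotum and mouth. The 11 between scrotum and nose became 0 without DIK nose replicate 1 and 3 without a filter. Between mouth and nose the 5 of the 69 genes with the smallest p were NDUFS7 (2.81 on the log2 scale), UQCR10 (2.87), NDUFB5 (2.79), ATP5B (3.02) and SDHA (2.91), all more positive at mouth. Between scrotum and nose they were NDUFB8 (-1.61), NDUFC1 (-1.65), NDUFB10 (-1.23), UQCRB (-1.78) and NDUFB4 (-1.38), all more negative at scrotum. Between scrotum and mouth they were NDUFS7 (-4.18), UQCR10 (-4.27), ATP5C1 (-3.32), UQCRB (-4.01) and NDUFB5 (-3.75), all more negative at scrotum. Of 24 tested skeletal muscle markers, 22 were lower and 1 higher in WT mouth than in WT nose (all genes 9.92% each). In WT scrotum 23 were higher than in WT mouth and 0 lower (all genes 13.7% and 9.29%). Between WT scrotum and nose 1 was higher at scrotum and 0 lower (all genes 2.6% and 3.45%). The part of these markers in the differences was not tested.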

How the results depend on the processing

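The counts of members called between DIK and WT at each label, their direction and the interactions of mouth with the other labels stayed within 1.5 times under every other scaling, filter, tool and block tried. With single libraries left out, the genes called lower ran from 24 to 37 at nose, 3 to 5 at mouth and 59 to 64 at scrotum, those called higher from 2 to 3, 21 to 34 and 3 to 3, and those with an interaction from 20 to 48 (mouth and nose), 0 to 43 (scrotum and nose) and 55 to 65 (scrotum and mouth). Within WT the calls ran from 51 to 61 (mouth and nose), 0 to 55 (scrotum and nose) and 64 to 67 (scrotum and mouth), and within DIK from 0 to 0, 0 to 2 and 0 to 2. The 11 interactions of scrotum with nose became 5 with median-of-ratios scaling, 3 without a filter and 6 with the replicate number as a block. The 11 calls between WT scrotum and nose became 2 with library size as the only scaling, 6 without a filter and 26 with DESeq2. The 0 calls between DIK scrotum and nose became 1 with library size as the only scaling, 1 with at least 10 CPM in 3 libraries, 2 with DESeq2 and 2 with the replicate block, and those between DIK scrotum and mouth became 1 with library size as the only scaling. With both WT scrotum replicate 2 and WT nose replicate 1 left out, the counts were 29 interactions of scrotum with nose, 41 calls between WT scrotum and nose, 2 between DIK scrotum and nose and 2 between DIK scrotum and mouth; at nose, mouth and scrotum 43, 5 and 64 genes were then lower and 2, 33 and 3 higher in DIK. Genes that were not called changed sign near 0: at mouth SDHC without DIK mouth replicate 3 (0.055) or WT mouth replicate 1 (0.029) and SDHD without DIK mouth replicate 3 (0.055), and at nose NDUFB10 without DIK nose replicate 2 (0.067), WT nose replicate 2 (0.044) or WT nose replicate 3 (0.035), NDUFC1 without DIK nose replicate 2 (0.065) and UQCR10 without both libraries named above (-0.045). With single libraries left out they ran from -0.18 to 0.055 for SDHC and -0.43 to 0.055 for SDHD at mouth, and from -0.19 to 0.067 for NDUFB10 and -0.21 to 0.065 for NDUFC1 at nose. The cause of these changes was not tested. The replicate block changed no other count by over 1.5 times; of the named genes it ended 1 call (SDHA at mouth) and added 1 (ATP5G1 at mouth, 0.93). The 418665 counts of WT nose replicate 1 limit low values there.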

Other observations

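The genes outside the 69 whose log CPM was most like the mean log CPM of the 69 over the 18 libraries were SLC25A3 (Pearson's r = 0.985), the mitochondrial phosphate carrier, ATPIF1 (r = 0.981), an inhibitor of ATP synthase, the placeholder genes LOC100156967 (r = 0.979) and LOC100522678 (r = 0.979), and COX17 (r = 0.978), a copper chaperone of complex IV. These values describe libraries that fall into separate groups and share depth and tissue makeup.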
